A study of Mus musculus with 12 samples.

Results

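The mitochondrial solute carriers described here are the genes whose symbol begins with Slc25a followed by a number. They were found as the probe sets whose only gene symbol in the array's annotation has that form. This gave 93 probe sets for 44 genes, out of 45101 probe sets and 18193 genes on the array. After a filter on dim signals 39 of the 44 genes were tested among 13156 genes. The 5 others, Slc25a18, Slc25a31, Slc25a41, Slc25a48 and Slc25a54, lay above the filter on 0 of the 12 arrays. Of the tested carriers, 37 passed it on all 12 arrays and 2 on fewer.

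The arrays hold RNA of CD8 T cells purified from the spleens of male mice with an enrichment kit. Control mice carried Cd4-Cre and intact Scap (Cd4-Cre/Scap+/+ littermates, called WT), and the others carried Cd4-Cre with floxed Scap (Cd4-Cre/Scapfl/fl, called KO). Both genotypes therefore express the Cre recombinase, which the Cd4 promoter drives in the T cell lineage from the thymus on, so that floxed Scap is targeted before mature CD8 cells form. RNA was taken from resting cells (T0) or from cells held for 6 h with plate-bound antibody to CD3 and soluble antibody to CD28 (T6), with 3 arrays in each of the 4 groups. The mice's ages are not in the labels. The titles number the arrays of a group as biological replicates, and the design text does not settle whether a T0 and a T6 array share a mouse.

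Proteins of the SLC25 family sit mostly in the inner mitochondrial membrane and exchange nucleotides, phosphate, carboxylates, amino acids and cofactors between the matrix and the cytosol. Nuclear genes encode them, and the translocases of the outer and inner membrane insert them. Lymphocytes that leave quiescence enlarge their mitochondria and draw on several of these exchanges for nucleotide, amino acid and one-carbon metabolism. Scap escorts SREBP transcription factors from the endoplasmic reticulum for cleavage, after which they switch on sterol and fatty acid genes. The citrate carrier Slc25a1 supplies the cytosolic acetyl-CoA used by those pathways and has been described as an SREBP target.

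The promoters of 4 carriers are shown because the results turn on them. Slc25a33 had the largest rise on activation and Slc25a12 the largest fall in WT. Slc25a24 alone was called between genotypes, and Slc25a1 is the carrier tied to SREBP. Each runs from 250 bases before the RefSeq gene start to 50 bases after it on GRCm38.p6, 5′ to 3′ on the gene's strand. They lie at chr4:149774218-149774517 on the minus strand (Slc25a33), chr2:71367706-71368005 on the minus strand (Slc25a12), chr3:109122899-109123198 on the plus strand (Slc25a24) and chr16:17928170-17928469 on the minus strand (Slc25a1). Capitals mark the palindrome CACGTG, the E-box that Myc and SREBP proteins among others can bind.
Slc25a33: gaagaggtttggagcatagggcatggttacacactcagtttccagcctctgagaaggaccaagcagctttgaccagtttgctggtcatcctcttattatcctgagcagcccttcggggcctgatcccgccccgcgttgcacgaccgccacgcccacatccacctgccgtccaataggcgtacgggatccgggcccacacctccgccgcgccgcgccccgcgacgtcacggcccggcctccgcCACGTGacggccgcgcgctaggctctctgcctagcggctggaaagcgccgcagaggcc
Slc25a12: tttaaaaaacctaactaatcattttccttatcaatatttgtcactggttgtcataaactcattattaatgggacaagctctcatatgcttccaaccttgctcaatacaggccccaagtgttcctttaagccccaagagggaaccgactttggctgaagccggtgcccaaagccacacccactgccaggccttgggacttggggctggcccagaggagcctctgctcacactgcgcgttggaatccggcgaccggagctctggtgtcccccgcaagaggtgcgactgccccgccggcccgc
Slc25a24: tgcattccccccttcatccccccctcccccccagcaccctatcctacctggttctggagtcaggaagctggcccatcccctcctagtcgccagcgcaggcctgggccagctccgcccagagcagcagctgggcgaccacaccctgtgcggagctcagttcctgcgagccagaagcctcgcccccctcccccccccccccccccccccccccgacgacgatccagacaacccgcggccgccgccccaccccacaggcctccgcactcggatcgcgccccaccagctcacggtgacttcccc
Slc25a1: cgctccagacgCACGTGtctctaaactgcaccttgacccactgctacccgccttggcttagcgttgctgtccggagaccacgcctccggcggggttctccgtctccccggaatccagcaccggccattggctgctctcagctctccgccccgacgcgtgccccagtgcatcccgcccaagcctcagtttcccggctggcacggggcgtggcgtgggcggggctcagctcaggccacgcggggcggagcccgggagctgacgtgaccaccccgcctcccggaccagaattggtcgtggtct

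One E-box lay 8 bases before the start of Slc25a33 and one 239 bases before the start of Slc25a1, while the Slc25a12 and Slc25a24 windows held none. RefSeq windows were matched for 34 of the 44 carriers, with 43 windows in all. CACGTG, which reads the same on both strands, occurred in 8 of these windows (18.6%), against 7.15% of all 32851 windows. The carriers with it were Slc25a1, Slc25a13, Slc25a14, Slc25a15, Slc25a31, Slc25a33 and Slc25a36. Among carriers with a window it occurred in 2 of the 4 called higher in WT on activation, in 0 of the 9 called lower and in 4 of the 17 not called. The sterol response element searched, TCACNCCAC on either strand, occurred in 1 carrier window (2.33%), that of Slc25a18, against 1.24% of all windows. These matches describe the letters in the windows and were not tested.

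Signals were scaled per array by the authors, and array medians lay between 61.3 and 76.2. Arrays of a group correlated at 0.969 to 0.978 over all probe sets. The CD8 T cell genes Cd8a, Cd8b1, Cd3d and Cd3g were above the filter on all 12 arrays, and Cd4 and Ncr1 on none. The Scap signal lay between 1805 and 3079 on the 12 arrays. The KO minus WT difference of Scap was -0.25 on the log2 scale at T0 (SE 0.14, limma adjusted p = 0.593) and -0.47 at T6 (adjusted p = 0.273), neither of which was called. Whether the Scap probe set lies in the deleted part was not examined here. Markers of erythroid, B and myeloid cells were higher in KO, as given beside the genotype results.

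The first question was how the carriers moved when quiescent WT cells were activated. In WT, 6 carriers rose and 9 fell over 6 h, and 24 of the 39 were not called. Calls were made by limma where the p adjusted over all tested genes (Benjamini-Hochberg) was under 0.05. Those counts are 15.4% and 23.1% of the carriers, and among all tested genes 11.3% were called higher and 13.8% lower. In KO 4 carriers rose and 4 fell, 10.3% each, where 10.4% of all genes were called higher and 10.4% lower. The median log2 change of the carriers was -0.11 in WT and -0.02 in KO, against -0.06 and -0.0036 over all tested genes. Centring each array on its median moved the median of all genes in WT by 0.11 and gave 8 carriers higher and 7 lower in WT, and 5 higher and 3 lower in KO. With quantile normalization the WT counts were 6 and 7. The shares of all genes called after these rescalings are not given here.

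Other measures moved with time as well. Of the 9 myeloid markers, 8 were called lower at T6 in each genotype, with median log2 changes of -2.90 in WT and -2.69 in KO, and their mean level on an array went from 10.39 to 10.77 at T0 to 6.84 to 7.51 at T6 in WT. Of the 7 CD8 T cell markers, 4 were called lower in each genotype, with medians of -0.43 and -0.45. Of the B cell markers 1 of 8 was called lower in WT, and of the erythroid markers 0 of 6 were called by limma. The log2 gap between 3' and 5' probes of the Actb control rose without overlap, from 0.22 to 0.37 up to 0.45 to 0.54 in WT and from 0.23 to 0.51 up to 0.62 to 0.79 in KO. The part of the myeloid and CD8 markers and of the Actb gap in the carriers' changes was not tested.

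Arrays of KO that share a number at T0 and T6 deviated together from their group means, so KO activation was also fitted with the number as a replicate block. In that fit 3 carriers rose and 3 fell in KO, and the shares of all genes called in it are not given here. Slc25a11, Slc25a27 and Slc25a32 were no longer called and Slc25a26 was called higher.

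**Figure D1:**
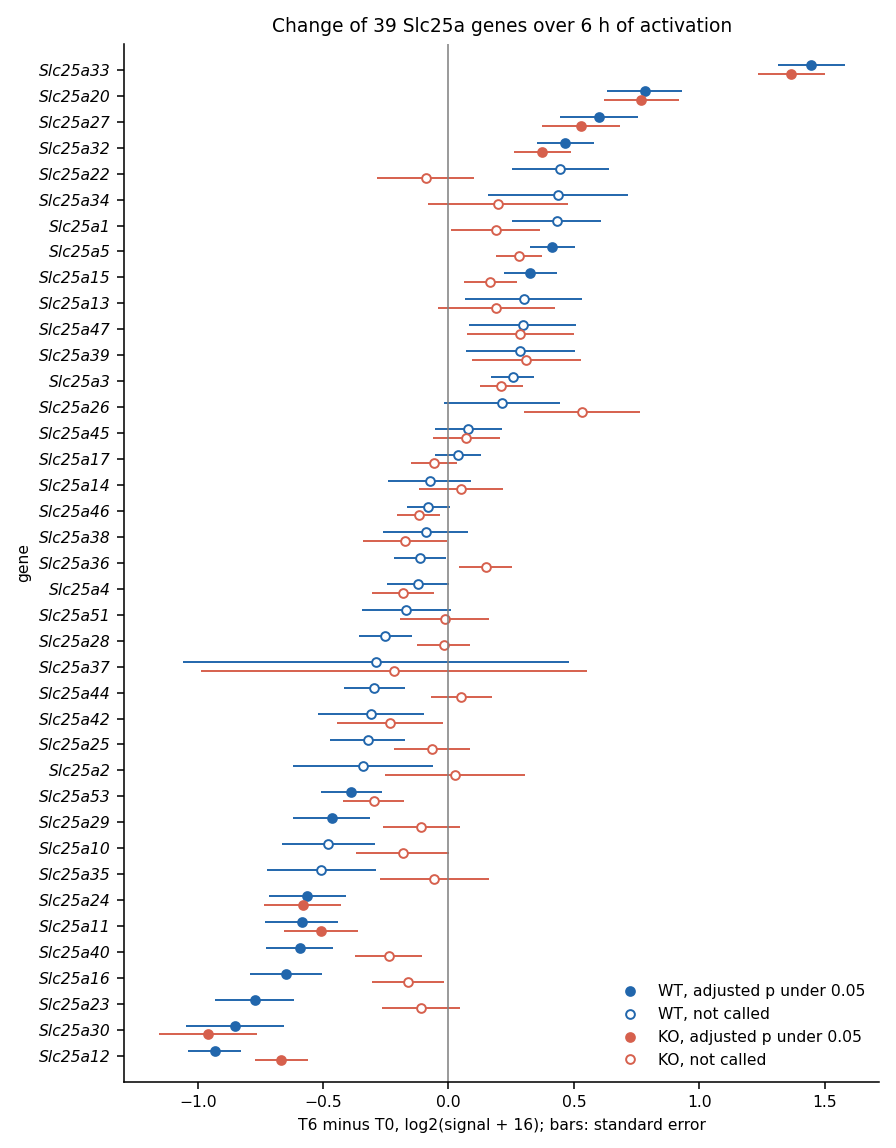
Change of the 39 tested carriers over 6 h of activation, as T6 minus T0 on the log2(signal + 16) scale with standard errors, in WT (blue) and KO (red). Filled points mark an adjusted p under 0.05. Slc25a33 lies farthest to the right in both genotypes, at 1.45 in WT and 1.37 in KO, and Slc25a12 and Slc25a30 lie farthest to the left.

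Among the carriers of nucleotides and phosphate, 2 of 8 tested rose and 2 fell in WT, which is 25% each. Of all tested genes 11.3% were called higher and 13.8% lower in WT. In each of the substrate classes 1 gene makes up 11.1% or more, so their counts are coarse. Slc25a33, a pyrimidine nucleotide carrier, gave signals of 362, 408 and 324 in WT T0 and 1071, 924 and 1067 in WT T6. The KO arrays read 453, 432 and 375 at T0 and 1258, 949 and 1132 at T6. Every T6 array lay above every T0 array of either genotype. The rise was 2.73-fold in WT (log2 1.45, SE 0.13, limma adjusted p = 5.51e-05) and 2.58-fold in KO (log2 1.37, adjusted p = 1.02e-04). The other pyrimidine nucleotide carrier Slc25a36, changed by -0.11 in WT and 0.15 in KO and was not called.

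Slc25a5, the adenine nucleotide translocase ANT2 that exchanges ADP for ATP, read 17097, 16002 and 16933 in WT T0 and 22414, 20878 and 23467 in WT T6. In KO the values were 18177, 16751 and 15658 at T0 and 21789.5, 19876 and 19788 at T6. The groups did not overlap within either genotype. The log2 change was 0.41 in WT (SE 0.09, limma adjusted p = 0.00833) and 0.28 in KO (adjusted p = 0.0531, not called). Slc25a4, the isoform ANT1 of heart and muscle, changed by -0.12 and -0.18 and was not called. Slc25a3, the phosphate carrier that feeds ATP synthase, changed by 0.26 in WT (adjusted p = 0.0548) and 0.21 in KO. Several Slc25a5 probe sets carry the suffix that Affymetrix gives to probes shared with other sequences, so near-identical copies may add to their signal.

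The calcium-regulated ATP-Mg/phosphate carriers Slc25a23, Slc25a24 and Slc25a25 exchange adenine nucleotides for phosphate and so adjust the matrix nucleotide pool. Slc25a23 read 199, 172 and 187 in WT T0 and 99.0, 110.0 and 97.8 in WT T6. In KO it read 145, 205 and 127 at T0 and 130.2, 136 and 166 at T6. The WT groups stood apart and the KO groups overlapped. Slc25a23 changed by -0.77 in WT (SE 0.16, limma adjusted p = 0.00550) and by -0.11 in KO (adjusted p = 0.683). Slc25a24 fell by 0.56 on the log2 scale in WT (limma adjusted p = 0.0229) and by 0.58 in KO (adjusted p = 0.0227; -0.38 and 0.263 with the mean of its probe sets), and its array values are given with the genotype results. Slc25a25 changed by -0.32 and -0.06 and was not called.

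Of the 8 tested carriers of cofactors and glutathione, 1 rose (12.5%) and 2 fell (25%) in WT. Slc25a32, reported to carry folate or flavin adenine dinucleotide, read 918, 855 and 991 in WT T0 and 1441, 1217 and 1188 in WT T6. Its KO values were 850.3, 857 and 949 at T0 and 1195, 1020.1 and 1253 at T6. All T6 arrays exceeded all T0 arrays, with changes of 0.47 in WT (SE 0.11, limma adjusted p = 0.0144) and 0.37 in KO (adjusted p = 0.0430). The KO call held in 9 of 25 alternatives and was lost with the replicate block (adjusted p = 0.0609) and with the mean of the gene's probe sets, as was the WT call with that mean (adjusted p = 0.112). Slc25a16, linked to coenzyme A uptake, read 565, 676 and 579.6 in WT T0 and 295, 435 and 428 in WT T6. In KO it gave 532, 538 and 502 at T0 and 501, 447 and 452 at T6. Groups stood apart in both genotypes, in KO by the narrow gap between 502 and 501. The change was -0.65 in WT (limma adjusted p = 0.00875) and -0.16 in KO (adjusted p = 0.485).

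Slc25a40, a close relative of the mitochondrial glutathione carrier Slc25a39, read 1356, 1499 and 1509 in WT T0 and 990.1, 941 and 941 in WT T6. The KO arrays gave 1165, 1459 and 1168 at T0 and 878, 1185 and 1154 at T6. WT groups stood apart and KO groups overlapped, with changes of -0.59 in WT (SE 0.13, limma adjusted p = 0.00931) and -0.24 in KO (adjusted p = 0.251). Slc25a39 itself changed by 0.29 and 0.31 and was not called. The other cofactor carriers were not called in either genotype without the block. They were Slc25a17 (coenzyme A and flavins in peroxisomes), Slc25a26 (S-adenosylmethionine), Slc25a42 (coenzyme A) and Slc25a51 (NAD+), with WT changes from -0.31 (Slc25a42) to 0.21 (Slc25a26). With the replicate block Slc25a26 was called higher in KO, at 0.53 (limma adjusted p = 0.0236).

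Of the 4 carriers of carboxylates and acylcarnitines, 1 rose and 1 fell (25% each), in both genotypes. Slc25a20 exchanges acylcarnitines for carnitine and so brings long-chain fatty acids to oxidation. It read 2358, 1756 and 1796 in WT T0 and 3676, 3007 and 3457 in WT T6, and 1891, 1484 and 1763 in KO T0 and 3258, 2607 and 2915 in KO T6. All T6 arrays exceeded all T0 arrays. The log2 rise was 0.78 in WT (SE 0.15, limma adjusted p = 0.00410) and 0.77 in KO (adjusted p = 0.00511).

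Slc25a11, the oxoglutarate/malate carrier of the malate-aspartate shuttle, read 1560.2, 1288 and 1517 in WT T0 and 915, 897 and 1082 in WT T6. The KO values were 1267, 1210.0 and 1240.3 at T0 and 689, 1009 and 933 at T6. It lay lower on every T6 array than on any T0 array, with changes of -0.58 in WT (SE 0.15, limma adjusted p = 0.0155) and -0.51 in KO (adjusted p = 0.0331, and 0.0526 with the replicate block). The citrate carrier Slc25a1 read 494, 519 and 684 in WT T0, 803, 807 and 679 in WT T6, 619, 517 and 589 in KO T0, and 588, 849.9 and 562 in KO T6. It was given array by array because of its tie to SREBP, not by size. Its groups overlapped in every comparison. The change on activation was 0.43 in WT (95% interval 0.04 to 0.82, limma adjusted p = 0.104) and 0.19 in KO (interval -0.20 to 0.58, adjusted p = 0.515). The dicarboxylate carrier Slc25a10 changed by -0.48 and -0.18 and was not called.

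**Figure D2:**
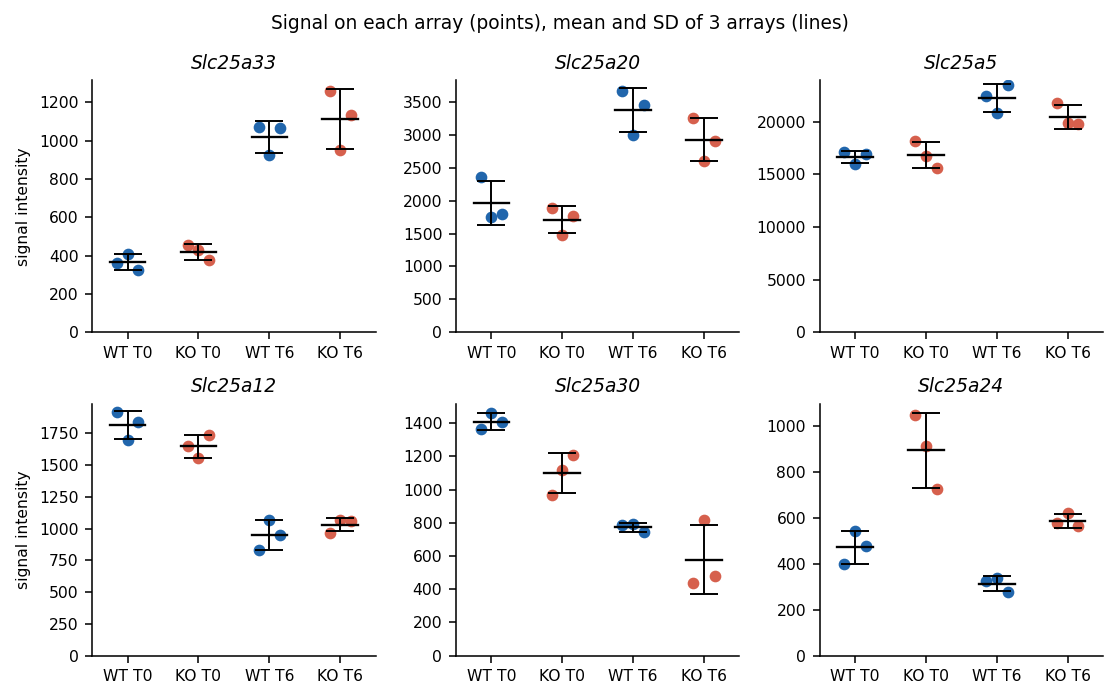
Signal intensity of 6 carriers on each of the 12 arrays, with lines for the mean and SD of 3 arrays, WT in blue and KO in red. Slc25a33, Slc25a20 and Slc25a5 lie higher at T6, Slc25a12 and Slc25a30 lie lower at T6, and Slc25a24 lies higher in KO than in WT at each time.

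Of the 8 tested amino acid carriers, 1 rose (12.5%) and 2 fell (25%) in WT. Slc25a12 (aralar), the calcium-stimulated aspartate/glutamate carrier of the malate-aspartate shuttle, read 1918, 1701 and 1839.9 in WT T0 and 832, 1068 and 949 in WT T6. In KO it read 1649, 1559 and 1737 at T0 and 969, 1065 and 1064 at T6. Both genotypes thus separated fully by time. The fall was 1.91-fold in WT (log2 -0.93, SE 0.11, limma adjusted p = 2.18e-04) and 1.59-fold in KO (log2 -0.67, adjusted p = 0.00178). Its paralog Slc25a13 (citrin) changed by 0.30 and 0.19 and was not called. Of the shuttle's exchangers, Slc25a11 and Slc25a12 fell in both genotypes and Slc25a13 did not pass the test.

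Slc25a15, the ornithine/citrulline carrier of the urea cycle and polyamine precursors, read 619.9, 569 and 613 in WT T0 and 705, 738 and 834 in WT T6. In KO it read 509, 637 and 541 at T0 and 636, 613 and 644 at T6. The WT groups stood apart and the KO groups overlapped, with changes of 0.33 in WT (SE 0.10, limma adjusted p = 0.0443) and 0.17 in KO (adjusted p = 0.307). The WT call was kept in 11 of 25 alternatives (adjusted p 0.0154 to 0.148). Slc25a29, a carrier of basic amino acids, read 352, 409 and 329 in WT T0 and 274, 223 and 280.3 in WT T6. Its KO values were 316, 264 and 400.5 at T0 and 304, 311 and 279 at T6. Again WT groups were separate and KO groups were not. The change was -0.47 in WT (SE 0.15, limma adjusted p = 0.0494) and -0.11 in KO (adjusted p = 0.680). The WT call did not hold in 18 of the 25 other settings (adjusted p 0.00551 to 0.156). The glutamate carrier Slc25a22 (0.45 in WT, -0.09 in KO) and the branched-chain amino acid carrier Slc25a44 (-0.30 in WT, 0.05 in KO) were not called.

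The iron importers Slc25a37 (mitoferrin 1) and Slc25a28 (mitoferrin 2) were not called on activation in either genotype. Of the 9 tested carriers with no settled substrate, 1 rose (11.1%) and 2 fell (22.2%) in WT. Slc25a27, a relative of the uncoupling proteins, read 116, 101 and 106 in WT T0 and 163, 155 and 199 in WT T6. It read 86.8, 75.1 and 85.3 in KO T0 and 137, 152 and 94.9 in KO T6. Groups did not overlap in either genotype, and the change was 0.60 in WT (SE 0.16, limma adjusted p = 0.0181) and 0.53 in KO (adjusted p = 0.0367). With the mean of its probe sets in place of the brightest one, the WT change became 0.14 (adjusted p = 0.695) and the KO change -0.22 (adjusted p = 0.538), so both calls ended. That mean takes in all 4 of its probe sets, of which 3 lay above the filter. The KO call also ended with the replicate block (adjusted p = 0.0700).

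Slc25a30, another relative of the uncoupling proteins, read 1362, 1463 and 1405 in WT T0 and 786, 792 and 742 in WT T6. The KO arrays gave 969, 1119.7 and 1206 at T0 and 434, 814 and 481 at T6. The T6 groups lay wholly below the T0 groups. The log2 change was -0.85 in WT (SE 0.20, limma adjusted p = 0.0105) and -0.96 in KO (adjusted p = 0.00646). With the mean of all 5 of its probe sets the changes were -0.35 (adjusted p = 0.150) and -0.34 (adjusted p = 0.179), and neither was called. Only 3 of these 5 lay above the filter, and the mean includes the dim ones. Slc25a53, a carrier-like protein related to Slc25a51, read 1558, 1346 and 1255 in WT T0 and 1072, 1023 and 1059 in WT T6. Its KO values were 1485, 1108 and 1377 at T0 and 1089, 1014 and 1094 at T6. Groups stood apart in both, with changes of -0.39 in WT (SE 0.12, limma adjusted p = 0.0407) and -0.30 in KO (adjusted p = 0.117). The WT call held in 10 of 25 alternatives, and the mean of both its probe sets gave -0.08 (adjusted p = 0.649).

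Of the genes with more than 1 probe set above the filter, 21 in number, 10 were called in WT. In 8 of these 10 every probe set moved the same way. The exceptions were Slc25a32, with a probe set at -0.15, and Slc25a53, whose other probe set read 0.22 in WT and 0.77 in KO (limma adjusted p = 0.00588 in KO over all probe sets), against its tested fall. The second Slc25a20 probe set rose by 0.53 in WT and 0.63 in KO. The 3 Slc25a12 probe sets changed by -0.93, -0.29 and -0.93 in WT, and the 3 Slc25a30 probe sets by -0.85, -0.85 and -0.73. All 8 Slc25a5 probe sets lay above 0 in WT, from 0.24 to 0.56. Counted by probe set, 10 of 80 were called higher and 13 lower in WT, and 6 and 9 in KO. The shares called among all 24539 probe sets of that fit are not given here, so these counts have no background beside them.

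**Figure D3:**
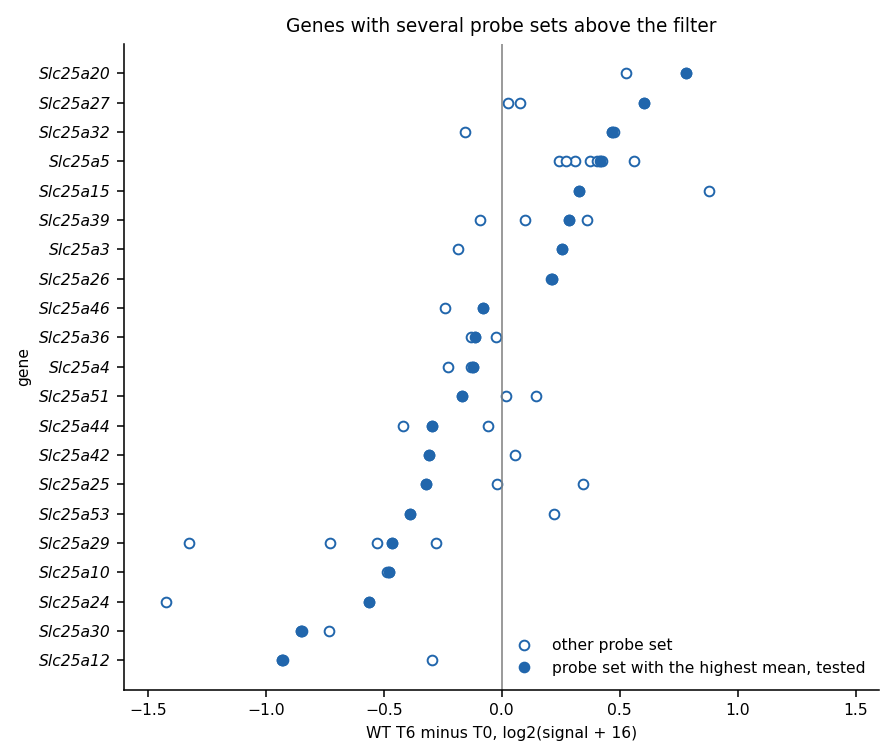
T6 minus T0 in WT on the log2(signal + 16) scale for every probe set of the 21 carriers with more than 1 probe set above the filter. Filled points are the probe set with the highest mean, which was tested for the gene, and open points are the others. The points of Slc25a20, Slc25a5, Slc25a15, Slc25a29, Slc25a24, Slc25a30 and Slc25a12 each lie on 1 side of 0, while Slc25a53 and Slc25a32 have points on both sides.

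The next question was whether activation moved the carriers differently in the arrays labelled KO. The 8 carriers called in KO were Slc25a33, Slc25a20, Slc25a27 and Slc25a32 (higher) and Slc25a12, Slc25a30, Slc25a11 and Slc25a24 (lower). All 8 were also WT calls with the same direction, which is 100% of the KO calls and 53.3% of the 15 WT calls. The same overlap over all tested genes is not given here, so it cannot be read as particular to the carriers. The 7 carriers called in WT alone, Slc25a5, Slc25a15, Slc25a16, Slc25a23, Slc25a29, Slc25a40 and Slc25a53, had the same sign in KO. A direct test of the difference (interaction) called 0 of 39 carriers by limma, and 0% of all tested genes. At an unadjusted p under 0.05 the interaction took 2 carriers (5.13%) and 4.59% of all genes. These were Slc25a23 (0.66, 95% interval 0.17 to 1.16) and Slc25a16 (0.49, interval 0.03 to 0.94), followed by Slc25a44 (0.35, interval -0.04 to 0.73), all with a limma adjusted p of 0.9997. A difference in response between the genotypes was therefore not shown for any carrier.

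The last question was which carriers differed between KO and WT. At T0 limma called 0 of the 39, where 0.038% of all tested genes were called. At an unadjusted p under 0.05 it took 3 carriers (7.69%), and 9.78% of all genes. At T6 it called 0, where 0.0988% of all genes were called. The unadjusted p was under 0.05 for 8 carriers (20.5%), against 11.8% of all genes. Averaged over both times, 1 carrier was higher in KO and 0 were lower, where 0.213% of all genes were called higher and 0.236% lower. The median KO minus WT difference of the carriers was -0.07 at T0 and 0.05 at T6, against -0.00011 and 0.04 over all genes.

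The carrier called was Slc25a24. It read 398, 542 and 475 in WT T0 and 1049, 910.2 and 723 in KO T0, then 325, 337 and 277 in WT T6 and 576, 620.4 and 562 in KO T6. Each KO array exceeded each WT array of its time. The KO minus WT difference was 0.89 at T0 (SE 0.15, limma adjusted p = 0.176), 0.88 at T6 (adjusted p = 0.0869) and 0.89 for the mean of both times (SE 0.11, 95% interval 0.64 to 1.13, adjusted p = 0.0100), a 1.85-fold difference. The second, dimmer Slc25a24 probe set differed by 0.97 in the mean of both times (limma adjusted p = 0.0883 over all probe sets). The times were less alike once it was included. With the mean of both probe sets the difference was 0.62 at T0 (limma adjusted p = 0.477) and 1.23 at T6 (adjusted p = 0.0666). Averaged over both times it was 0.93 (adjusted p = 0.0374). The T6 difference of the brighter probe set was called when dim genes were filtered at percentile 60 or when every probe set was tested. Without both KO arrays numbered 2 the mean difference was 0.85 (adjusted p = 0.0415). With the number within genotype as a random replicate block, an alternative added after the data were seen, it remained called (adjusted p = 0.0195).

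Markers of erythroid, B and myeloid cells were higher in KO. The mean log2 signal of 6 erythroid markers was 9.64 to 12.05 in KO against 8.77 to 9.06 in WT at T0 (exact permutation p = 0.1), and 9.002 to 12.28 against 8.11 to 9.14 at T6 (p = 0.2). All 6 had a higher mean in KO at both times, and the KO arrays numbered 2 were the highest. The 8 B cell markers lay at 8.32 to 9.87 in KO against 7.40 to 8.35 in WT at T0 (exact permutation p = 0.2), and 8.09 to 9.27 against 6.82 to 7.93 at T6 (p = 0.1), with all 8 higher in KO. The 9 myeloid markers lay at 10.90 to 11.29 in KO against 10.39 to 10.77 in WT at T0, and 7.58 to 8.19 against 6.84 to 7.51 at T6 (exact permutation p = 0.1 at each time), with all 9 higher in KO. The 7 CD8 T cell markers were all lower in KO, at 13.07 to 13.26 against 13.36 to 13.59 at T0 and 12.52 to 12.78 against 13.01 to 13.15 at T6 (exact permutation p = 0.1 at each time). The 2 tested CD4 T cell markers, Zbtb7b and Foxp3, differed on average by 0.59 at T0 and 0.43 at T6 (exact permutation p = 0.1 and 0.4). At T0 1 of the 2 was higher in KO, with differences of -0.01 and 1.19, and at T6 2 were. With 3 arrays against 3, 0.1 is the smallest p this two-sided exact test can give. In the limma fit of the mean of both times, 1 of 6 erythroid markers was called higher in KO (Slc4a1, 3.97, adjusted p = 0.0416). So was 1 of 9 myeloid markers, while 1 of 7 CD8 T cell markers was called lower. Of the 8 B cell and 2 CD4 T cell markers 0 were called. Among all tested genes 0.213% were called higher and 0.236% lower. In these bulk samples fewer cells of a type and less RNA per cell cannot be told apart.

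With the erythroid marker level as a covariate the mean difference of Slc25a24 was 0.71 and was no longer called (limma adjusted p = 0.116). It was 0.84 with the B cell markers (adjusted p = 0.204) and 0.70 with the myeloid markers (adjusted p = 0.584) in their place, 2 covariates added after the data were seen. The SE was 0.15 with the erythroid covariate and 0.11 without it. Myeloid marker levels did not overlap between KO and WT at either time, nor did B cell levels at T6. Marker level and genotype therefore cannot be well told apart in these fits, and a lost call does not decide between them. The gap between 3' and 5' Actb control probes was also larger in KO T6, at 0.62 to 0.79 against 0.45 to 0.54 in WT T6. At T0 the ranges overlapped, at 0.23 to 0.51 in KO against 0.22 to 0.37 in WT. The part of this gap in the result was not tested.

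**Figure D4:**
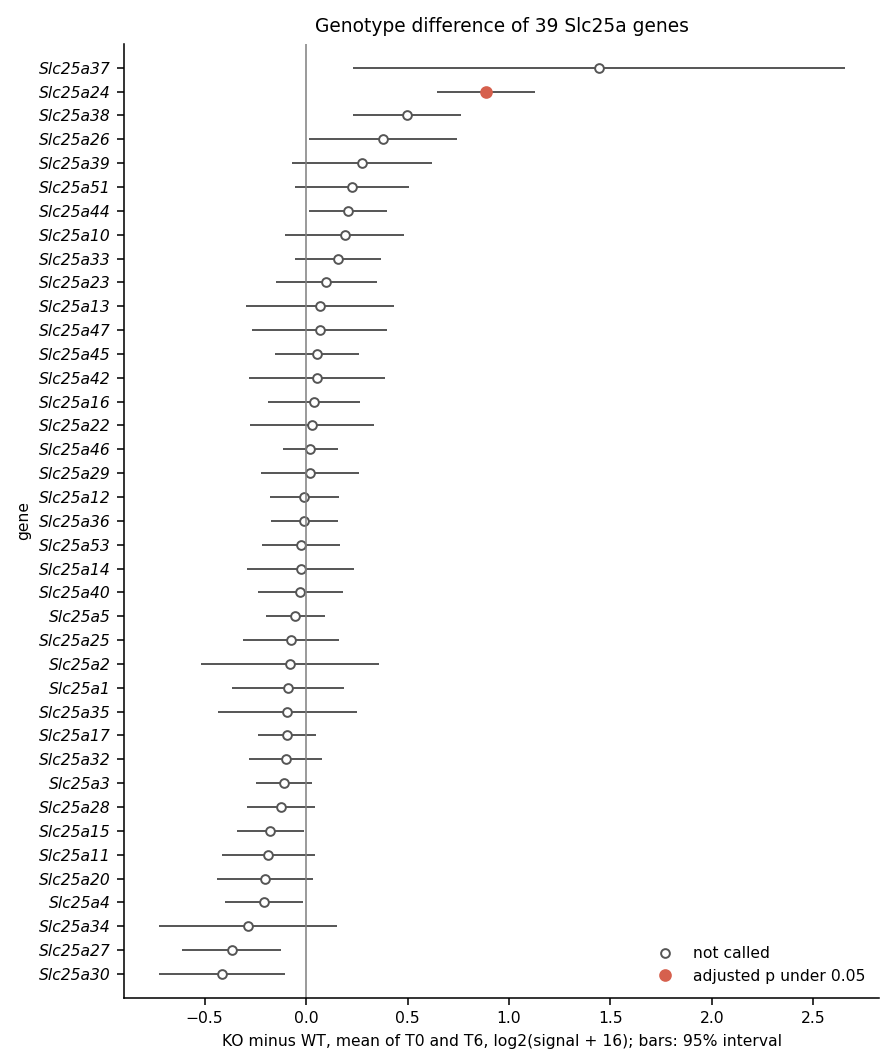
KO minus WT difference of the 39 tested carriers, averaged over T0 and T6, on the log2(signal + 16) scale with 95% intervals. Slc25a24 (filled) is the only one with an adjusted p under 0.05, at 0.89, and the interval of Slc25a37, at 1.44, is the widest.

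Slc25a38, the mitochondrial glycine carrier that erythroid cells need to make heme, read 586, 539 and 568 in WT T0 and 709, 990.0 and 802 in KO T0. At T6 it read 522, 559.8 and 505 in WT and 677, 954 and 602 in KO. KO arrays lay above WT arrays at both times. The mean difference was 0.50 (SE 0.12, limma adjusted p = 0.0972, not called), 0.34 without both KO arrays numbered 2 (adjusted p = 0.0953) and 0.19 with the erythroid covariate (adjusted p = 0.551). Slc25a38 lies on chromosome 9, as do Scap, Slc25a20 and Slc25a36.

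Slc25a37, mitoferrin 1, which imports iron for heme in erythroid cells, is given because its spread stood out once the values were seen. It read 617, 910.3 and 869 in WT T0 and 2604, 5151 and 702 in KO T0, then 470.4, 706 and 797 in WT T6 and 1480.0, 5444 and 738 in KO T6. The KO arrays numbered 1 and 2 lay above all WT arrays and those numbered 3 lay within the WT range. The mean difference was 1.44 (SE 0.54, limma adjusted p = 0.223), 0.73 without both KO arrays numbered 2, and -0.43 with the erythroid covariate (adjusted p = 0.448). Slc25a39, also needed for heme in erythroid cells, differed by 0.28 (adjusted p = 0.391) and by -0.18 with that covariate. The other iron importer Slc25a28 read 1478, 1161 and 1178 in WT T0 and 1123, 1054 and 1028 in KO T0. Those groups did not overlap, at a difference of -0.24 (limma adjusted p = 0.508). At T6 it read 1083, 1006 and 1090.3 in WT and 1060.5, 1011 and 1092 in KO, which overlapped.

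**Figure D5:**
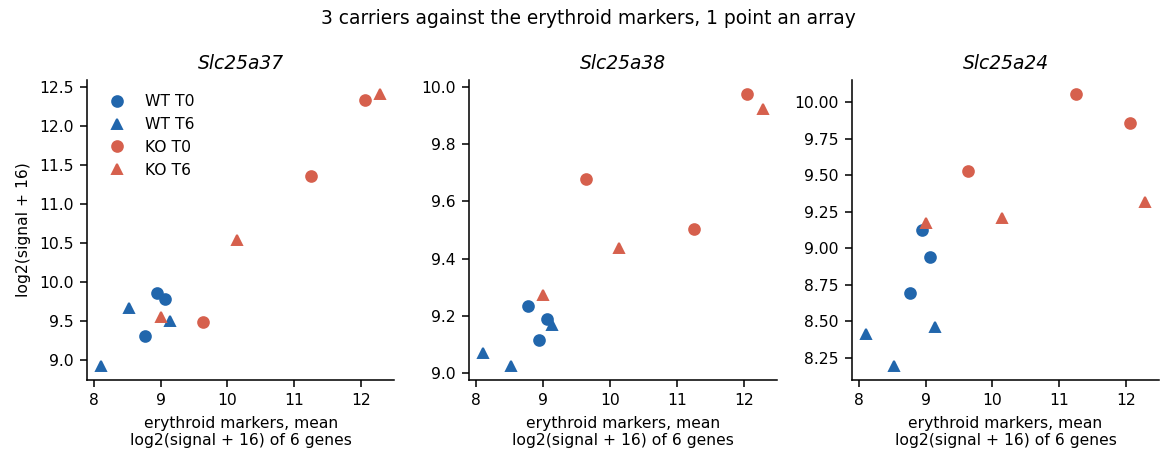
Log2(signal + 16) of Slc25a37, Slc25a38 and Slc25a24 on each array against the mean log2 signal of 6 erythroid markers on the same array, with circles for T0, triangles for T6, blue for WT and red for KO. Both KO arrays numbered 2, at 12.05 and 12.28 on the horizontal axis, have the highest Slc25a37 and Slc25a38 signals, while the highest Slc25a24 signal is that of KO T0 replicate 1.

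The remaining carriers among the 3 smallest p-values of a genotype comparison were Slc25a27, Slc25a44 and Slc25a23. Slc25a27, with the array values above, lay lower in KO on every array of its time, at a mean difference of -0.37 (SE 0.11, limma adjusted p = 0.149). Slc25a44 read 303, 397 and 353 in WT T0, 268, 294 and 282 in WT T6, 345, 365 and 361 in KO T0, and 334, 351 and 433 in KO T6. Its T6 groups stood apart, at a difference of 0.38 (limma adjusted p = 0.292). Slc25a23 differed by 0.43 at T6 (adjusted p = 0.338). The citrate carrier Slc25a1 differed by 0.03 at T0 (95% interval -0.36 to 0.43) and -0.21 at T6 (interval -0.60 to 0.18), neither called. Slc25a30 differed by -0.41 in the mean (limma adjusted p = 0.178). Without both KO arrays numbered 2 it was called lower in KO, at -0.56 (adjusted p = 0.0339), and 1 of its probe sets was called lower in the fit of all 12 arrays, at -0.46 (adjusted p = 0.0206 over all probe sets).

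Genes around the carriers were counted from lists of related proteins. Of 12 components that import carrier proteins, 5 rose and 0 fell in WT, and 5 rose and 0 fell in KO. That is 41.7% higher in each, against 11.3% of all tested genes in WT and 10.4% in KO, and the median change was 0.34 in both. Timm10, an intermembrane-space chaperone of carriers, rose by 1.15 (SE 0.15, limma adjusted p = 3.97e-04) in WT and 0.97 in KO, and Tomm40, the outer membrane pore, by 0.74 and 0.56. Timm8b rose by 0.45 and 0.51. Timm22, the channel that inserts carriers, rose by 0.56 in KO and read 0.31 in WT (not called). Of 16 other mitochondrial transporters, 1 rose (Letm1, 0.53, against 0.16 in KO, not called) and 2 fell (Sfxn2, -0.73, and Tspo, -0.42) in WT, and 1 rose (the pyruvate carrier subunit Mpc1, 0.30, against 0.18 in WT, not called) and 1 fell (Sfxn2, -0.63) in KO. Tspo read -0.41 in KO (limma adjusted p = 0.0590). These are 6.25% higher and 12.5% lower in WT and 6.25% each in KO, no more than the shares of all tested genes. Of the 3 tested SLC25 proteins with other symbols, Ucp3, Mtch1 and Mtch2, 0 were called on activation by limma.

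Of 15 enzymes that work with the carriers in shuttles and carbon export, 3 rose and 1 fell in WT, and 2 rose and 2 fell in KO. As shares these are 20% and 6.67% in WT, against 11.3% and 13.8% of all tested genes. In KO they are 13.3% and 13.3%, against 10.4% and 10.4%. In a list of 15, 1 gene makes up 6.67%, so such shares are coarse. Got1, the cytosolic aminotransferase of the malate-aspartate shuttle, rose by 0.74 in WT and 0.92 in KO, whereas the shuttle carriers Slc25a11 and Slc25a12 fell. Gpd2 of the glycerol phosphate shuttle rose by 0.96 in WT and read 0.48 in KO (not called). Cpt1a, which makes the acylcarnitines that Slc25a20 carries, fell by 0.57 in WT and 0.80 in KO, while Slc25a20 rose. Malic enzyme Me1 rose by 1.40 in KO and read 0.50 in WT (not called), and Me2 fell by 0.46 in KO and read -0.26 in WT (not called). In the genotype comparisons and the interaction 0 members of these 4 lists were called by limma.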

How the data were processed

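The deposited values are linear signal intensities per probe set, which the authors obtained from GCOS (version not stated), per the submitters' processing notes. Every array had the same trimmed mean (500.003), a sign of scaling per array. How background was removed is not given in the sources used here. Signals were taken as log2(signal + 16), which understates changes of dim genes. The brightest probe set by mean stood for its gene, which was kept if above percentile 40 of its array (signal 34.0 to 42.7) on at least 3 arrays. The 13156 genes were tested two-sided with limma 3.58.1 in R 4.3.3, with 1 coefficient for each group, and adjusted by Benjamini-Hochberg over all of them. Precision is limited by how many arrays there are. The p-values measure the spread between arrays, whose sharing of mice is not settled. In KO the arrays of one number correlated after removal of group means (0.18, 0.46 and 0.38), and in WT they did not throughout (0.23, -0.06 and -0.11). That was not tested and does not settle pairing. Members and lists were chosen with earlier results of these data known. Array values are given for carriers called in WT on activation or between genotypes, and for the 3 with the smallest p where fewer than 3 were called. Promoters and motifs come from RefSeq's GRCm38.p6 windows. The fit was checked on simulated data with independent noise on each array. That check cannot show how the calls fare where arrays of a number correlate. Alternatives covered the added constant, the filter, scaling, probe set choice, left-out arrays, replicate number, separate fits and marker covariates.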

Additional observations from a re-analysis of the deposited data

How the results depend on the processing

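Over 28 other settings, 288 of 308 counts of called carriers stayed within 1.5 times, 886 of 887 values of named carriers kept their direction, and 773 kept both direction and side of the threshold. The exception was Slc25a27 in KO on activation, at -0.22 with the mean of its probe sets. In many of these settings the direction could not change. Another filter, block, separate fit or tested set, or an array left out of a group not compared, left the difference itself as it was. On activation in KO, 2 carriers rose with no filter, without both KO arrays numbered 2 or in a separate fit of the KO groups, and 1 fell in the separate fit. In KO against WT at T6, 1 carrier was higher with a filter at percentile 60 or with every probe set tested. For the mean over both times, 1 was lower without both KO arrays numbered 2, and 0 were higher with the erythroid, B cell or myeloid covariate, the last 2 chosen after seeing the data. The cause of these changes was not tested, and the shares of all genes called in these settings are not given here.

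Leaving out each array in turn gave 3 to 7 rises and 5 to 9 falls in WT, and 2 to 4 rises and 2 to 4 falls in KO. It gave 0 to 1 carriers lower in the mean genotype comparison. The shares of all genes called in those fits are not given here. The lowest WT counts came without WT T0 replicate 2 (3 rises) and without WT T6 replicate 1 (5 falls). In KO, 2 rises were left without WT T0 replicate 3, without the array of KO T0 numbered 2 or 3, or without that of KO T6 numbered 1. There were 2 falls without the array of KO T0 numbered 1, or without the array of KO T6 numbered 1 or 3. Without KO T6 replicate 2, 1 carrier was lower in the mean genotype comparison. Arrays of the same replicate number correlated, after group means were removed, at 0.18, 0.46 and 0.38 in KO and 0.23, -0.06 and -0.11 in WT, against -0.40 to 0.14 for unlike numbers in KO and -0.16 to 0.23 in WT. These correlations were not tested and do not settle whether a number marks a mouse in either genotype. Counts with a replicate block are therefore given for both, without the shares of all genes called in those fits. With a replicate block the counts were 5 rises and 8 falls in WT, without the calls of Slc25a15 and Slc25a29, and 3 and 3 in KO, where no call changed beyond the 4 named in the report. Those activation counts took the number within genotype. The mean genotype comparison kept 1 higher and 0 lower with the number as a fixed block shared by KO and WT arrays. It did so too with the number within genotype as a random block. The labels do not say that KO and WT arrays of a number belong together.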
